A study of Homo sapiens with 4 samples.

Results

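The drug efflux transporters measured here were ABCG2, ABCB1, ABCC1, ABCC2, ABCC3, ABCC4 and ABCC5, the ATP-driven pumps known to carry dyes and drugs out of cells. They were taken by name: every probe set that the array annotation assigned to 1 of these 7 genes and to no other gene was included, whatever its signal. This gave 18 of the 54613 probe sets on the array, with 1 to 5 probe sets for each gene, and 15 of the 18 had a mean signal of at least 66.3, the median over the array, and were taken as expressed. A further probe set, 209994_s_at, named both ABCB4 and ABCB1 and was kept apart. RNA came from A549 cells, a human lung adenocarcinoma line, transfected with an siRNA against ARRB1 (the gene of beta-arrestin-1) or with a control siRNA, starved of serum for 36 h, and then either given nicotine at 1 µM for 24 h or left serum starved. There was 1 Affymetrix Human Genome U133 Plus 2.0 array for each condition: ARRB1 siRNA with nicotine, ARRB1 siRNA serum starved, control siRNA with nicotine and control siRNA serum starved. The design addresses what nicotine does in these cells with and without the knockdown. Total RNA of each culture was profiled, so the values describe A549 cells as a whole and not sorted side population cells, and fewer cells carrying a transcript cannot be told apart from less transcript in each cell.

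Side population cells are the small fraction of a culture that stays dim after loading with a Hoechst dye, because pumps in the plasma membrane export the dye. ABCG2, also known as breast cancer resistance protein, is the pump mainly responsible, and the side population is commonly identified by showing that an ABCG2 inhibitor abolishes it. ABCB1, or P-glycoprotein, exports many hydrophobic drugs, whereas the ABCC genes encode the multidrug resistance-associated proteins, which carry conjugated organic anions and nucleotide analogues. A549 cells carry a mutated KEAP1 and therefore keep active NRF2, a transcription factor that acts through antioxidant response elements and is known to regulate several of these pumps.

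The genes lie on different chromosomes. In the RefSeq annotation of GRCh38.p14, ABCG2 is on chromosome 4, ABCB1 on 7, ABCC1 on 16, ABCC2 on 10, ABCC3 on 17, ABCC4 on 13 and ABCC5 on 3. RefSeq promoter windows, each of 250 bases before and 50 bases after an annotated start, were listed for 5 of the 7 genes (10 windows, 5 of them for ABCG2) and were searched on both strands for 4 short motifs. The antioxidant response core TGACNNNGC was found in 2 of the 10 windows, against 13.3% of all 34943 windows. The dioxin response core GCGTG was found in 6 of the 10 (36.5% of all windows), the GC box GGGCGG in 3 (44.9% of all windows) and an E2F site, written as TTTCCCGC, TTTCGCGC, TTTGCCGC or TTTGGCGC, in 0 (3.3% of all windows). A pair of the ABCG2 windows overlap by 250 bases and hold the same GC boxes and dioxin cores, which are therefore counted in both. Both windows with the antioxidant core are given here, since 1 belongs to the pump that defines the side population and the other to ABCC4. With the signals as scaled by the authors, ABCC4 had the smallest adjusted p-values of the pumps. The ABCG2 window is chr4:88159241-88159540 and the ABCC4 window is chr13:95301402-95301701, both on the minus strand of GRCh38.p14 and both written 5′ to 3′ along the gene. Capitals mark the antioxidant core, which starts at base 252 of the ABCG2 window and at base 102 of the ABCC4 window, where it lies on the opposite strand.
ABCG2 promoter window: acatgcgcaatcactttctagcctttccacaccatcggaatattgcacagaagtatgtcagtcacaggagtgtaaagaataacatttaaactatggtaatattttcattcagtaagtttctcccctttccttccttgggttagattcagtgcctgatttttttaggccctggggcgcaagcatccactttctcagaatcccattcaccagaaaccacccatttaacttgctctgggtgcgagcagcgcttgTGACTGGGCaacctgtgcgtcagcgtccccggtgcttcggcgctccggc
ABCC4 promoter window: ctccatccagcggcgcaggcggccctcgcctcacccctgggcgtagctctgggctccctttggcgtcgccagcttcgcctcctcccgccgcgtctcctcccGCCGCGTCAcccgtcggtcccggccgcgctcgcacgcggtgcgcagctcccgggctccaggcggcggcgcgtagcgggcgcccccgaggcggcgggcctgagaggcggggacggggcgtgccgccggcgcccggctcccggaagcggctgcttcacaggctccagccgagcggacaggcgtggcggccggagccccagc
A match to these letters is a description of the sequence and was not tested for binding.

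All signals below are MAS5 signals on a linear scale, the intensity of a probe set after the authors had scaled each array to a common mean. The 2% trimmed mean was 499.9 on each of the 4 arrays, and the median signal was 69.0 with ARRB1 siRNA and nicotine, 72.4 with ARRB1 siRNA and serum starvation, 73.3 with control siRNA and nicotine and 68.6 with control siRNA and serum starvation. Scaling to a common median in place of the trimmed mean (centring, below) moved the log2 differences with nicotine by 0.07 in ARRB1 siRNA and −0.10 in control siRNA cells, and those with ARRB1 siRNA by 0.07 in nicotine treated and −0.08 in serum starved cells. ARRB1, the targeted gene, had less signal with ARRB1 siRNA on 6 of its 7 probe sets in both treatments. On its brightest probe set, 43511_s_at, the signal was 224 in ARRB1 siRNA cells and 331 in control siRNA cells with nicotine, and 191 in ARRB1 siRNA cells against 352 in control siRNA cells without it. The exception was 221861_at, with 194 and 180 in ARRB1 siRNA and control siRNA cells given nicotine, and 233 and 224 in those without. The 5 epithelial markers (KRT8, KRT18, KRT19, EPCAM and CDH1) all reached the median signal, whereas the blood markers PTPRC and CD3E, the endothelial marker CDH5 and the fibroblast marker COL3A1 did not. The other endothelial marker, PECAM1, did (205 and 173 in ARRB1 siRNA cells with and without nicotine, 157 and 186 in control siRNA cells), and so did the other fibroblast marker, COL1A1 (573 and 551 in ARRB1 siRNA cells, 465 and 425 in control siRNA cells).

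No efflux transporter passed the test for either factor. Only 1 of the 15 expressed probe sets reached a 2-fold difference in any of the 4 comparisons: 242553_at of ABCC3 was higher with nicotine in control siRNA cells, and after centring it was just short of the limit. There, among all 27307 expressed probe sets, 0.989% reached 2-fold upward and 0.436% downward. In the other 3 comparisons 0 of the 15 reached 2-fold in either direction. Of all expressed probe sets, 0.905% were higher and 1.22% lower by that limit with nicotine in ARRB1 siRNA cells, 0.996% and 1.86% with ARRB1 siRNA under nicotine, and 1.24% and 1.06% with ARRB1 siRNA under serum starvation. Since each condition had a single array, these differences have no replicate check and no p-value. As a scale for them, many of those of the efflux transporters are given with an SD. It is the SD of the log2 differences of the 1000 probe sets nearest in mean signal between the same arrays, about their own mean. That mean was not taken off the differences, so a shift shared by probe sets of like signal stays in them. Giving the 4 arrays the same distribution (quantile normalization) moved 202804_at of ABCC1 with ARRB1 siRNA under serum starvation from −0.24 to −0.33. It moved 208161_s_at of ABCC3 with ARRB1 siRNA under nicotine from 0.39 to 0.27. Most differences of other genes below are given without it, and some were smaller than it, such as those of PPARA, GSTM3, SLCO3A1 and RAB11B. The plot of signals by probe set shows all 4 values of each.

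**Figure D1:**
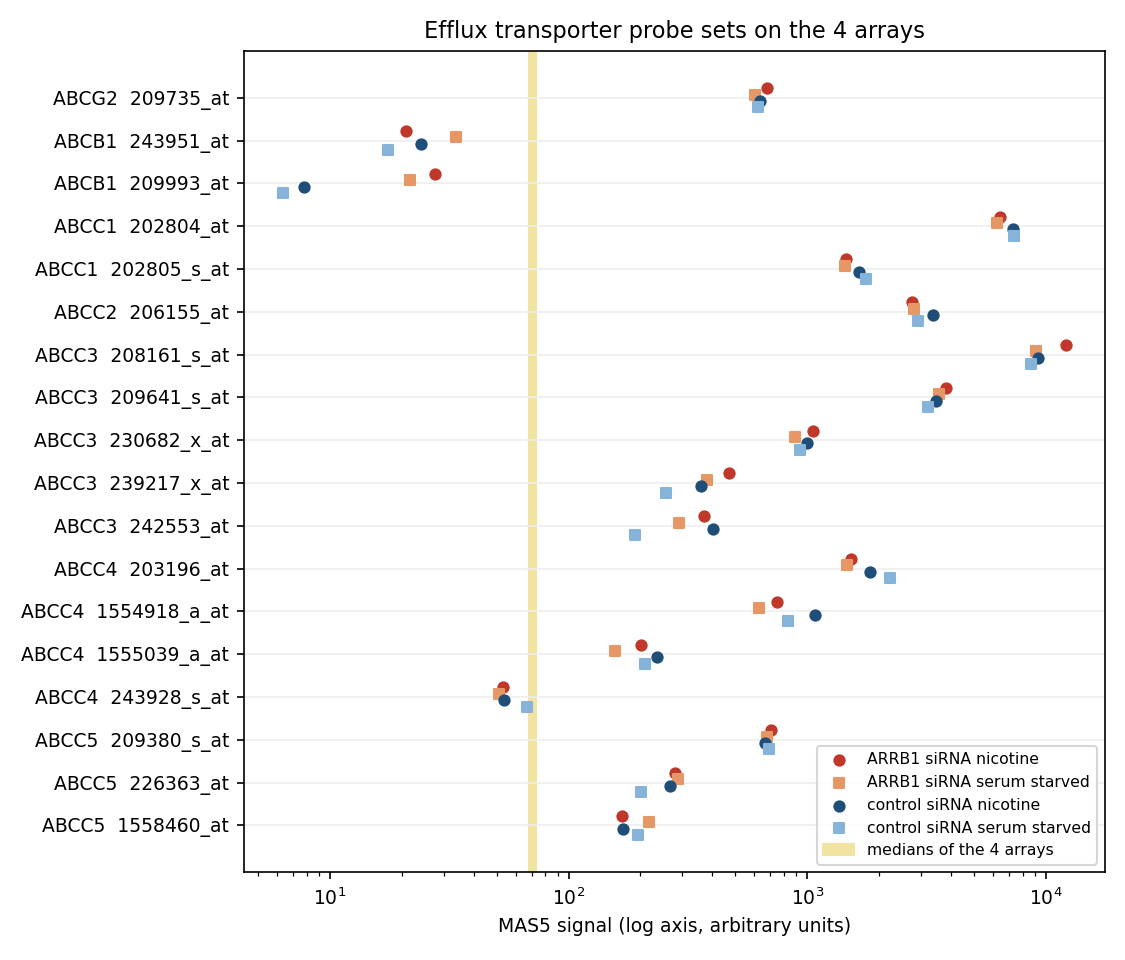
Signals of the 18 probe sets of the 7 efflux transporter genes on a logarithmic axis (MAS5 signal), with 1 point for each of the 4 arrays. The points of ABCG2 (209735_at) lie between 604 and 676, whereas the 2 probe sets of ABCB1 lie below the median signal on every array.

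For a test, an additive limma model with a term for siRNA and a term for nicotine was fitted to the log2 signals of all 27307 expressed probe sets, with Benjamini-Hochberg adjustment over all of them. Each term compares 2 arrays with 2 arrays, so any interaction between siRNA and nicotine counts as error. Of the 15 probe sets of the efflux transporters, 0 were called at an adjusted p of 0.05 for ARRB1 siRNA, whereas 1.93% of all expressed probe sets were called higher and 2.37% lower. Without adjustment, 6 of the 15 had a p under 0.05 (2 higher and 4 lower with ARRB1 siRNA), which is 40.0% of them against 19.1% of all expressed probe sets. All 6 belonged to ABCC1, ABCC3 or ABCC4, and probe sets of the same gene are not independent, so the share does not count genes. For nicotine, 0 of the 15 were called, with 0.231% of all expressed probe sets called higher and 0.022% lower. Here 4 of the 15 had an unadjusted p under 0.05, all of them higher with nicotine, or 26.7% against 10.0% of all. All 4 belonged to ABCC3 or ABCC4, most of them to ABCC3, so this share does not count genes either.

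ABCG2 differed little among the 4 conditions. Its only probe set, 209735_at, had a signal of 676 with ARRB1 siRNA and nicotine, 604 with ARRB1 siRNA and serum starvation, 631 with control siRNA and nicotine and 622 with control siRNA and serum starvation. The highest signal was 1.12 times the lowest, whereas the median of this ratio was 1.28 among the 1000 probe sets of like signal, with quartiles of 1.18 and 1.45. ABCG2 thus varied less over the arrays than 3 in 4 probe sets of its brightness. The log2 difference with nicotine was 0.16 in ARRB1 siRNA cells (SD at this signal 0.283) and 0.02 in control siRNA cells (SD 0.24). The log2 difference with ARRB1 siRNA was 0.10 in nicotine treated cells (SD 0.319) and −0.04 in serum starved cells (SD 0.318). All 4 differences were smaller than the SD of probe sets of like signal, and the nicotine differences in the 2 siRNA backgrounds were 0.14 apart. In the additive fit the log2 difference was 0.09 ± 0.13 (SE, adjusted p = 0.893) for nicotine and 0.03 ± 0.13 (adjusted p = 0.941) for ARRB1 siRNA. Centring each array on its median turned the nicotine difference in control siRNA cells to −0.07 and gave 0.23 in ARRB1 siRNA cells, so the direction in control siRNA cells depended on the scaling.

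The order of the ABCG2 signals, with ARRB1 siRNA and nicotine at the top and ARRB1 siRNA without nicotine at the bottom, was shared most closely by genes outside the transporter family. Over the 4 arrays, and among 12520 other expressed genes, the log2 signals centred on their own mean were nearest for TFDP1 (Euclidean distance 0.0067), followed by TM4SF18 (0.00736), ERLEC1 (0.0136), CUX1 (0.0145) and DPH7 (0.0203). Among the other pumps, each taken at its brightest probe set, ABCC5 came nearest, at rank 651 with a distance of 0.10. It did not share the order, since its lowest signal was with control siRNA and nicotine. It was nearly flat, with a highest signal 1.05 times the lowest. A less bright probe set of ABCC3, 230682_x_at, had the same order as ABCG2. ABCC1, ABCC2 and ABCC3 stood at ranks 4849, 5370 and 5424, and ABCC4 at rank 9837 with a distance of 0.508. With 4 arrays and differences below the SD at this signal, such distances describe these arrays alone.

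ABCB1 was not expressed by the limit used. Its probe set 243951_at had signals of 20.9 with ARRB1 siRNA and nicotine, 33.9 with ARRB1 siRNA alone, 24.0 with control siRNA and nicotine and 17.6 with control siRNA alone. Its other probe set, 209993_at, had 27.6 and 21.7 in ARRB1 siRNA cells with and without nicotine, against 7.77 and 6.36 in control siRNA cells with and without nicotine. All 8 of these signals were below the median of their array. The log2 difference of 209993_at with ARRB1 siRNA was 1.83 in nicotine treated cells and 1.77 in serum starved cells, where probe sets of such low signal had an SD of 1.61 and 1.63. On 243951_at the same differences were −0.20 (SD 1.41) and 0.95 (SD 1.32), so the probe sets of this gene did not share a direction in nicotine treated cells. The probe set shared with ABCB4, 209994_s_at, had 10.3 and 45.8 in ARRB1 siRNA cells with and without nicotine and 5.34 and 30.4 in control siRNA cells with and without nicotine.

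ABCC1, which exports glutathione conjugates and leukotriene C4, had slightly less signal with ARRB1 siRNA on both of its probe sets. On 202804_at the signals were 6397 and 6229 in ARRB1 siRNA cells with and without nicotine, against 7240 and 7363 in control siRNA cells with and without nicotine. On 202805_s_at they were 1451 and 1437 in ARRB1 siRNA cells, against 1649 and 1765 in control siRNA cells, in the same order. Both were lower with ARRB1 siRNA in nicotine treated and in serum starved cells, as were 32.6% of all expressed probe sets. The log2 difference in serum starved cells was −0.24 (SD 0.209) on 202804_at and −0.30 (SD 0.257) on 202805_s_at, each just beyond the SD, whereas in nicotine treated cells it was −0.18 (SD 0.232) and −0.19 (SD 0.283). In the additive fit ARRB1 siRNA gave −0.21 ± 0.09 (SE, adjusted p = 0.206) and −0.24 ± 0.11 (adjusted p = 0.256), which did not pass the threshold. Nicotine differences were between −0.10 and 0.04 over both probe sets and siRNAs.

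ABCC2, an apical exporter of conjugated bilirubin and drug conjugates, had signals of 2743 and 2812 in ARRB1 siRNA cells with and without nicotine and of 3350 and 2919 in control siRNA cells with and without nicotine (206155_at). Its highest signal was thus in control siRNA cells given nicotine. The log2 difference with nicotine was −0.04 (SD 0.224) in ARRB1 siRNA cells and 0.20 (SD 0.141) in control siRNA cells, and the first minus the second was −0.23 (SD 0.239). With ARRB1 siRNA it was −0.29 (SD 0.282) in nicotine treated cells and −0.05 (SD 0.24) in serum starved cells. The additive fit gave −0.17 ± 0.10 (SE, adjusted p = 0.406) for ARRB1 siRNA and 0.08 (adjusted p = 0.868) for nicotine.

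ABCC3, a basolateral exporter of glucuronides and bile salts, had more signal with nicotine on all 5 of its probe sets in both siRNA backgrounds, except that centring put 208161_s_at at −0.00 and 2 others at 0.01 in control siRNA cells. On 208161_s_at, its brightest probe set, the signals were 12076 and 9058 in ARRB1 siRNA cells with and without nicotine, against 9209 and 8632 in control siRNA cells with and without nicotine. One array, ARRB1 siRNA with nicotine, therefore stood above the other 3. The log2 difference with nicotine was 0.41 (SD 0.192) in ARRB1 siRNA cells and 0.09 (SD 0.109) in control siRNA cells, and the difference between these was 0.32 (SD 0.205). With quantile normalization the nicotine differences were 0.35 and 0.02. Such a rise was not particular to this gene: of the bright epithelial markers, KRT18 had 0.42 and KRT8 0.15 with nicotine in ARRB1 siRNA cells. The probe set 242553_at showed another order, with 371 and 290 in ARRB1 siRNA cells with and without nicotine and 403 and 189 in control siRNA cells with and without nicotine. Here the serum starved control array was the lowest, and the log2 difference with nicotine was 0.36 (SD 0.339) in ARRB1 siRNA cells and 1.09 (SD 0.299), a ratio of 2.13, in control siRNA cells. After centring the control siRNA value was 1.00, just under 2-fold before rounding, and the probe set is removed by a filter at the 75th percentile of signal.

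Of the other 3 probe sets of ABCC3, those whose identifiers end in _x_at can also bind other transcripts. On 239217_x_at the signals were 470 and 379 in ARRB1 siRNA cells with and without nicotine and 360 and 257 in control siRNA cells with and without nicotine, a log2 difference with nicotine of 0.31 (SD 0.326) and 0.48 (SD 0.275). On 209641_s_at they were 3796 and 3557 in ARRB1 siRNA cells and 3453 and 3213 in control siRNA cells, and on 230682_x_at they were 1052 and 892 in ARRB1 siRNA cells and 1000 and 929 in control siRNA cells, again with and without nicotine. The median log2 difference with nicotine over the 5 probe sets was 0.31 in ARRB1 siRNA cells and 0.11 in control siRNA cells. Whether the nicotine difference was larger in ARRB1 siRNA or in control siRNA cells depended on the probe set: it was larger with ARRB1 siRNA on 2 of the 5 and smaller on 3 as scaled, and larger on 3 after centring. In the additive fit nicotine gave 0.25 ± 0.09 (SE, adjusted p = 0.378) on 208161_s_at and 0.72 ± 0.20 (adjusted p = 0.199) on 242553_at, so the gene did not pass the test. After centring, the adjusted p of the fit on 242553_at was 0.055, just outside the threshold.

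**Figure D2:**
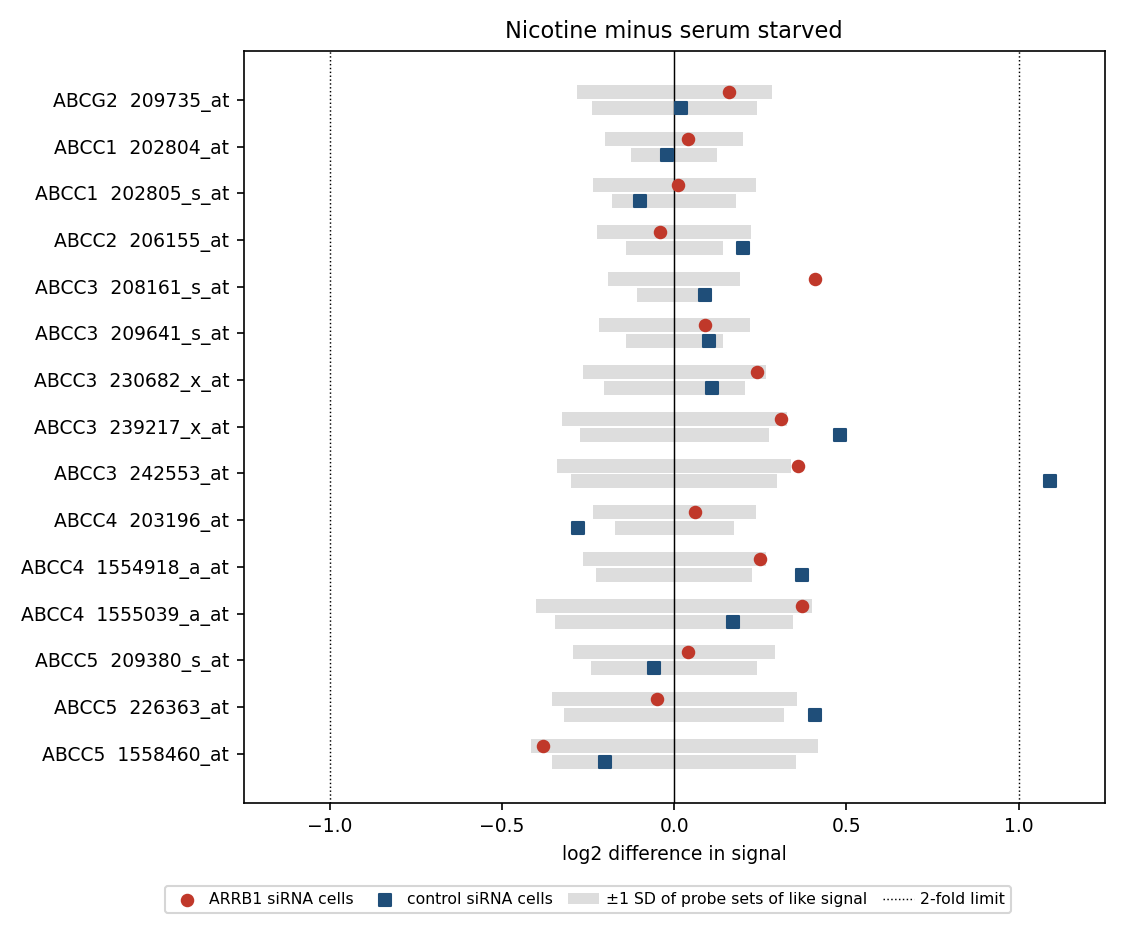
Log2 difference in signal, nicotine minus serum starved, for the 15 expressed probe sets in ARRB1 siRNA cells (circles) and control siRNA cells (squares). Grey bars span 1 SD either side of 0 for probe sets of like signal, dotted lines mark 2-fold, and the square of 242553_at (ABCC3), at 1.09, is the only point past them, though not after centring.

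ABCC4, which exports cyclic nucleotides, prostaglandin E2 and nucleotide analogues, had less signal with ARRB1 siRNA on all 4 of its probe sets in both treatments, except that the log2 difference of 243928_s_at in nicotine treated cells, −0.01, became 0.07 when the arrays were centred or quantile normalized. On 203196_at the signals were 1526 and 1462 in ARRB1 siRNA cells with and without nicotine, against 1823 and 2215 in control siRNA cells with and without nicotine. On 1554918_a_at they were 744 and 625 in ARRB1 siRNA cells, against 1075 and 829 in control siRNA cells, with and without nicotine. Being lower with ARRB1 siRNA in both treatments was common, at 32.6% of all expressed probe sets. The log2 difference with ARRB1 siRNA in nicotine treated cells was −0.26 (SD 0.283) on 203196_at and −0.53 (SD 0.327) on 1554918_a_at, and in serum starved cells it was −0.60 (SD 0.251) and −0.41 (SD 0.307), so 3 of these 4 values were beyond the SD. The additive fit gave −0.43 ± 0.12 (SE, adjusted p = 0.0629) on 203196_at and −0.47 ± 0.13 (adjusted p = 0.0577) on 1554918_a_at, the smallest adjusted p-values of the efflux transporters and just outside the threshold.

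On 1555039_a_at the signals were 202 and 157 in ARRB1 siRNA cells with and without nicotine and 235 and 209 in control siRNA cells with and without nicotine, and on 243928_s_at, below the expression limit, they were 53.4 and 51.1 in ARRB1 siRNA cells and 53.9 and 66.8 in control siRNA cells. Their log2 differences with ARRB1 siRNA were −0.22 and −0.01 in nicotine treated cells, and −0.42 (SD 0.426) and −0.39 in serum starved cells. Nicotine had no common direction for ABCC4: in control siRNA cells the log2 difference was −0.28 (SD 0.173) on 203196_at and 0.37 (SD 0.227) on 1554918_a_at, whereas in ARRB1 siRNA cells it was positive on all 4 probe sets, between 0.06 and 0.37.

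ABCC5, which carries cyclic GMP and nucleotide analogues, differed little between arrays on its brightest probe set. The signals of 209380_s_at were 702 and 680 in ARRB1 siRNA cells with and without nicotine and 666 and 694 in control siRNA cells with and without nicotine, a highest over lowest ratio of 1.05. On 226363_at they were 279 and 288 in ARRB1 siRNA cells and 267 and 201 in control siRNA cells, with and without nicotine, and only the serum starved control array stood apart. Its log2 difference with nicotine in control siRNA cells was 0.41 (SD 0.319), and that with ARRB1 siRNA under serum starvation was 0.52 (SD 0.392). On 1558460_at they were 168 and 218 in ARRB1 siRNA cells and 169 and 195 in control siRNA cells, lower with nicotine in both backgrounds.

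**Figure D3:**
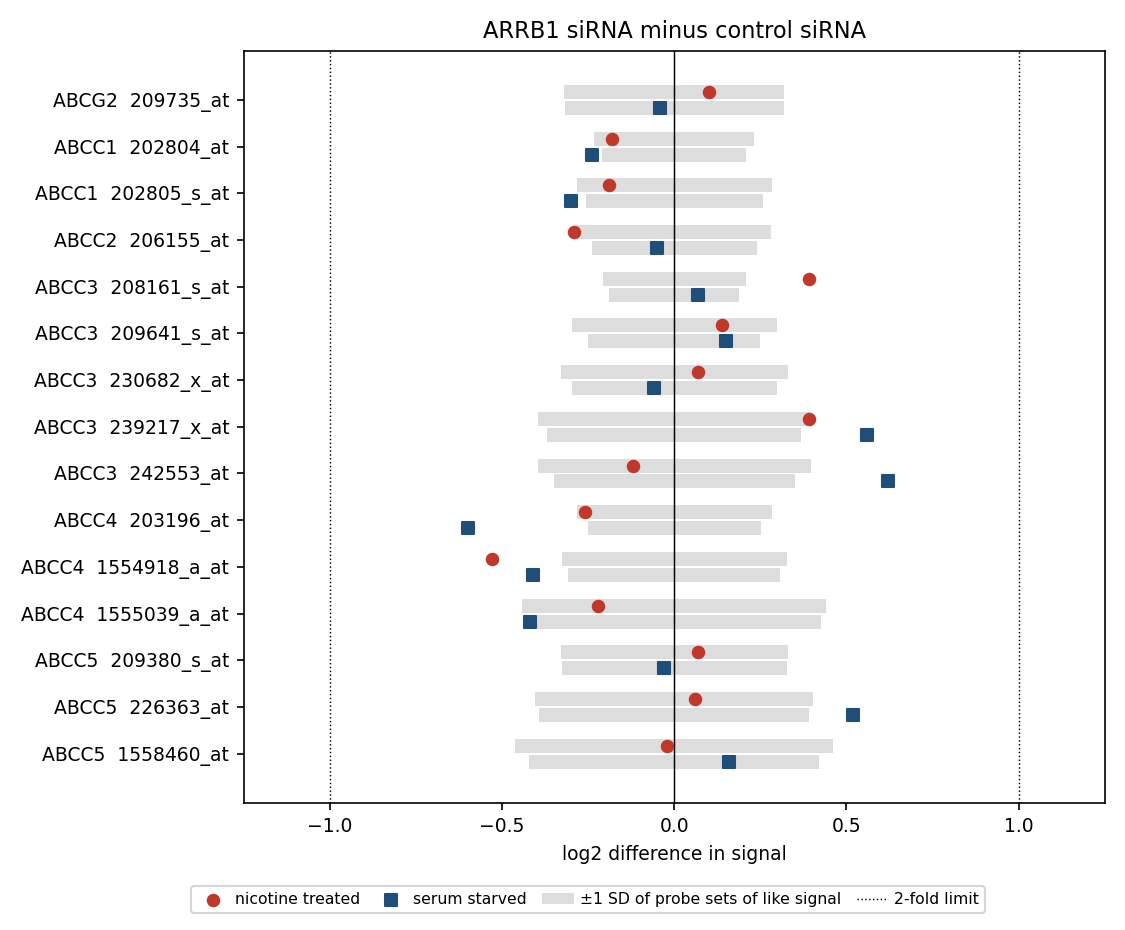
Log2 difference in signal, ARRB1 siRNA minus control siRNA, for the 15 expressed probe sets in nicotine treated and in serum starved cells. Grey bars span 1 SD either side of 0 for probe sets of like signal, dotted lines mark 2-fold, and the 2 probe sets of ABCC1 and the 3 of ABCC4 lie left of 0 in both treatments.

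Over all 15 expressed probe sets, the direction was compared between the 2 pairs of arrays for each factor, which have no array in common. With nicotine, 8 of the 15 (53.3%) were higher in both siRNA backgrounds and 1 (6.67%) was lower in both, against 27.3% and 28.4% of all 27307 expressed probe sets. Of the 8, 5 were the probe sets of ABCC3, which report on a single gene. After centring, ABCG2 and 208161_s_at of ABCC3 left the 8 and ABCC2 and 226363_at of ABCC5 entered. With ARRB1 siRNA, 4 (26.7%) were higher in both treatments and 6 (40.0%) were lower in both, against 30.7% and 32.6% of all. Counting only differences larger than the SD at the signal, nicotine gave 2 higher and 0 lower in ARRB1 siRNA cells (12.7% and 14.5% of all expressed probe sets) and 5 higher and 1 lower in control siRNA cells (15.5% and 11.7%). ARRB1 siRNA gave 1 higher and 2 lower in nicotine treated cells (11.9% and 15.3%) and 3 higher and 4 lower in serum starved cells (14.2% and 13.7%). The median log2 difference of the 15 was 0.09 and 0.10 with nicotine in ARRB1 siRNA and control siRNA cells, and −0.02 and −0.04 with ARRB1 siRNA under nicotine and under serum starvation, where the medians of all expressed probe sets were within 0.02 of 0.

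The probe sets also differed in how far they spread over the 4 arrays. The highest signal was 1.05 times the lowest for ABCC5 (209380_s_at), 1.12 times for ABCG2, 1.18 for ABCC1 (202804_at), 1.22 for ABCC2, 1.4 for ABCC3 (208161_s_at) and 1.51 for ABCC4 (203196_at), the brightest probe set being taken for each gene. Probe sets of like signal had medians between 1.19 and 1.28 in these cases. ABCC3 and ABCC4 lay above the upper quartile of their like (1.30 and 1.35), ABCG2 and ABCC5 lay below the lower quartile (1.18 and 1.17), and ABCC1 and ABCC2 lay between the quartiles.

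**Figure D4:**
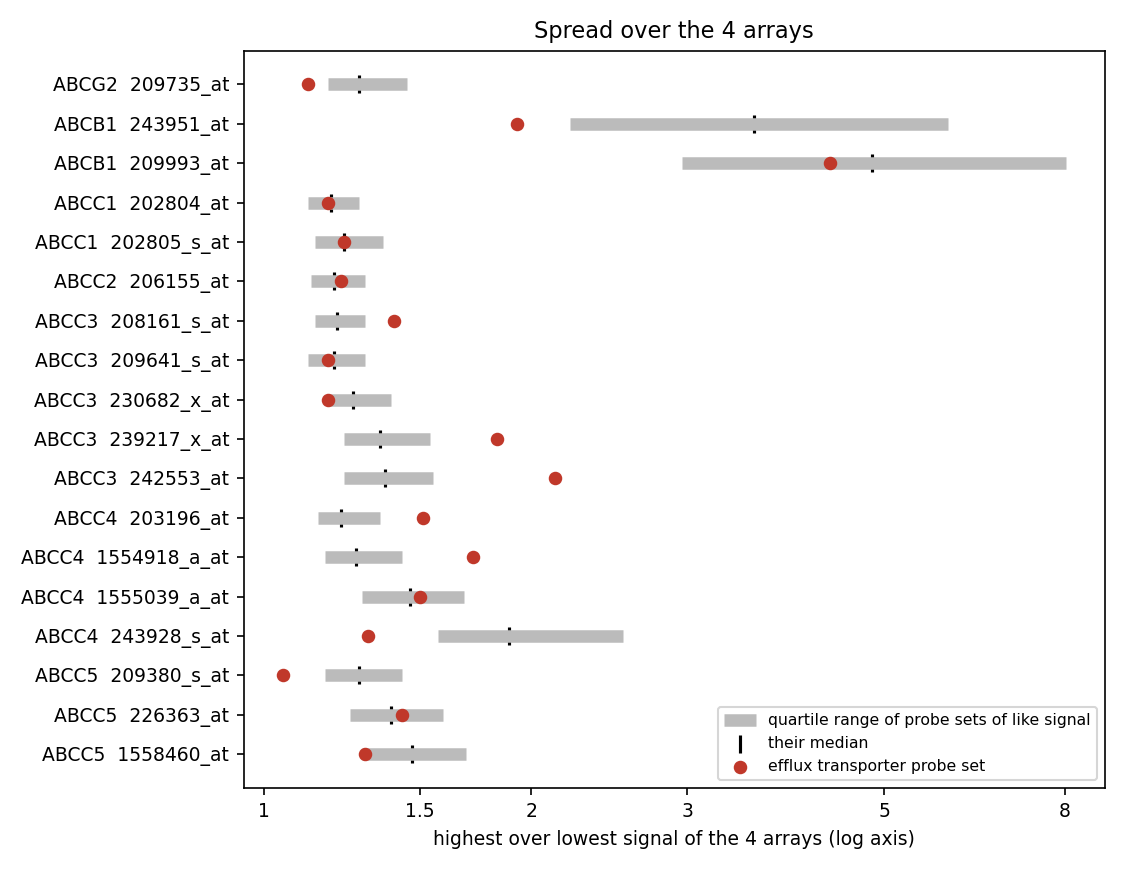
Ratio of the highest to the lowest of the 4 signals for each probe set of the efflux transporters, drawn with the median and quartiles of the 1000 probe sets nearest in mean signal. ABCG2, at 1.12, lies below the lower quartile of 1.18, and 203196_at of ABCC4, at 1.51, lies above the upper quartile of 1.35.

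The other ABC transporters served as a comparison within the family. Of 41 genes listed, 37 had a probe set of their own and 21 were expressed. None of the 21 reached 2-fold in any of the 4 comparisons, where 1.45% and 1.05% of the 12521 expressed genes did so with nicotine in ARRB1 siRNA and control siRNA cells, and 2.28% and 1.80% with ARRB1 siRNA under nicotine and under serum starvation. In the additive fit 4 of the 21 fell with ARRB1 siRNA and 0 rose, where 2.79% of the 12521 genes were called lower and 2.22% higher. For nicotine 0 of the 21 were called, with 0.0879% of the genes called higher and 0.024% lower. ABCA1, which exports cholesterol and phospholipids, had 1411 and 1376 in ARRB1 siRNA cells with and without nicotine, against 2160 and 2647 in control siRNA cells with and without nicotine, a fitted log2 difference of −0.78 ± 0.12 (SE, adjusted p = 0.00423). TAP1, which with TAP2 moves peptides into the endoplasmic reticulum for antigen presentation, had 923 and 972 in ARRB1 siRNA cells and 1823 and 1517 in control siRNA cells, again with and without nicotine (−0.81 ± 0.12, adjusted p = 0.00471). TAP2 (−0.67 ± 0.13, adjusted p = 0.0145) and ABCG1, another lipid exporter (−0.72 ± 0.16, adjusted p = 0.0279), passed as well. ABCA1 and TAP1, like ABCC4, were lower with ARRB1 siRNA in both treatments, as were 32.6% of all expressed probe sets. The calls rest on the moderated error of the fit: without its trend and robust settings the adjusted p was 0.297 for each of the 4 genes. The median log2 difference of the 21 genes with ARRB1 siRNA was −0.12 in nicotine treated cells and −0.02 in serum starved cells, against 0.02 and 0.02 over all expressed genes. Among those not called, ABCG4, a sterol transporter, had 105 and 104 in ARRB1 siRNA cells with and without nicotine and 116 and 63.5 in control siRNA cells, where the log2 difference with nicotine was 0.87. ABCB9, a lysosomal peptide transporter, had 0.61 in the same comparison, and ABCA5 and ABCD4 had −0.42 and −0.36 with nicotine in ARRB1 siRNA cells.

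**Figure D5:**
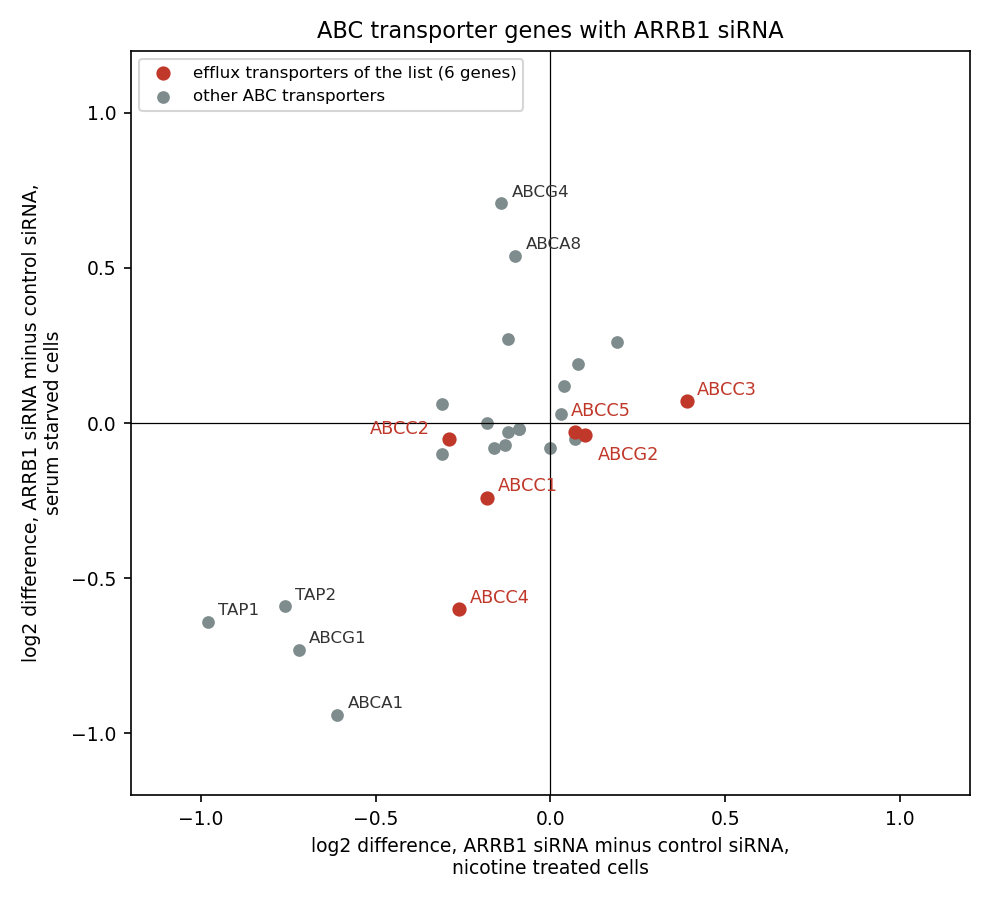
Log2 differences with ARRB1 siRNA of the 6 expressed efflux transporter genes and the 21 other expressed ABC transporter genes, with nicotine treated cells on the horizontal axis and serum starved cells on the vertical axis. ABCA1, ABCG1, TAP1 and TAP2 lie at the lower left, whereas ABCG2 (0.10 and −0.04) lies near the origin.

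Genes known to control or to supply the pumps were also read. Of the 16 expressed regulators, 0 reached 2-fold and 0 were called for either factor. NFE2L2, which encodes NRF2, had signals of 8504 and 7548 in ARRB1 siRNA cells with and without nicotine and of 7990 and 7601 in control siRNA cells with and without nicotine. ARNT, the partner of the dioxin receptor AHR, had 289 and 400 in ARRB1 siRNA cells and 478 and 392 in control siRNA cells, a log2 difference with ARRB1 siRNA of −0.72 in nicotine treated cells. RXRA, a nuclear receptor partner, had −0.41 in that comparison, and HIF1A, a hypoxia factor, had 0.32 with ARRB1 siRNA under serum starvation. EPAS1, a related factor, had 0.31 with nicotine in ARRB1 siRNA cells, and PPARA had −0.18 with nicotine in control siRNA cells. The 22 expressed NRF2 target genes had 0 past 2-fold, and their median log2 difference was 0.17 and 0.14 with nicotine in ARRB1 siRNA and control siRNA cells, and 0.15 and 0.11 with ARRB1 siRNA in nicotine treated and serum starved cells, against medians within 0.02 of 0 over all expressed genes. In the additive fit 4 of the 22 rose with ARRB1 siRNA and 0 fell (2.22% and 2.79% of all expressed genes): FTL, the ferritin light chain (0.37, adjusted p = 0.0224), TXNRD1, thioredoxin reductase (0.34, adjusted p = 0.0256), AKR1C3, an aldo-keto reductase (0.32, adjusted p = 0.0342), and TXN, thioredoxin (0.31, adjusted p = 0.044). None of these 4 calls held under any of the 5 alternative fits, and with quantile normalization the differences were 0.07, 0.07, 0.04 and 0.03. For nicotine the same 4 genes had 0.38, 0.19, 0.27 and 0.03 in the fit, none of them called. Their lowest values in the alternative fits were 0.12, −0.01, 0.04 and −0.21. The list medians above are of the values as scaled, so they depend on the scaling too. EPHX1, an epoxide hydrolase, had −0.51 with nicotine in ARRB1 siRNA cells, and UGDH, which makes UDP-glucuronic acid, had 0.46 with ARRB1 siRNA under serum starvation, neither of them called.

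Among the 17 expressed genes listed as conjugating enzymes that make substrates for the ABCC pumps, 0 were called for either factor. EPHX2, which was on that list, is an epoxide hydrolase and not a conjugating enzyme. It had 216 and 268 in ARRB1 siRNA cells with and without nicotine and 111 and 197 in control siRNA cells with and without nicotine, the lowest signal being that of control siRNA with nicotine. SULT2B1, a sulfotransferase, had −0.73 with ARRB1 siRNA under nicotine, and TPMT, a methyltransferase, had 0.53 with ARRB1 siRNA under serum starvation. The glutathione transferases GSTP1 and GSTM3 had 0.40 with nicotine in ARRB1 siRNA cells and −0.19 with nicotine in control siRNA cells. The 11 expressed drug uptake carriers, which work against the pumps by bringing drugs in, held 1 gene that fell with ARRB1 siRNA and 0 that rose (2.79% and 2.22% of all expressed genes): SLCO1B3, an organic anion transporter, with 1508 and 1543 in ARRB1 siRNA cells and 2358 and 2419 in control siRNA cells (−0.65 ± 0.10, adjusted p = 0.00662), a call kept in 3 of the 5 alternative fits. SLCO4C1, of the same family, was the carrier past 2-fold, with 89.3 in ARRB1 siRNA cells and 189 in control siRNA cells given nicotine (log2 difference −1.08), but its fitted adjusted p was 0.142. SLCO4A1 had −0.55 with ARRB1 siRNA under serum starvation, SLC31A1, a copper importer, had 0.51 with nicotine in control siRNA cells, and SLCO3A1 had 0.24 with nicotine in ARRB1 siRNA cells. Of the 14 expressed anchoring, trafficking and other resistance genes, 1 was called for ARRB1 siRNA, where 2.22% of all expressed genes rose: CAV1, a caveolar scaffold protein, rose by 0.33 on the log2 scale (adjusted p = 0.0484), a call that none of the 5 alternative fits kept. The copper pumps ATP7A and ATP7B had −0.64 and −0.63 with ARRB1 siRNA under serum starvation, and SLC47A1, a drug and cation exporter, had −0.42 with ARRB1 siRNA under nicotine. RAB11B and MYO5B, of recycling vesicles, had −0.41 and 0.39 with nicotine in control siRNA cells, and NHERF1 and MSN, which tie membrane proteins to actin, had −0.33 and −0.22 with nicotine in ARRB1 siRNA cells.

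Of the 11 expressed side population and stem cell markers, 1 fell and 1 rose with ARRB1 siRNA (2.79% and 2.22% of all expressed genes). SOX2, a transcription factor of pluripotent cells, had 1400 and 1507 in ARRB1 siRNA cells with and without nicotine, against 2268 and 2139 in control siRNA cells with and without nicotine (−0.60 ± 0.11, adjusted p = 0.0121), a call kept in 2 of the 5 alternative fits. ALDH1A1, an aldehyde dehydrogenase used to mark stem-like cells, rose by 0.36 on the log2 scale (adjusted p = 0.0223), a call lost in all 5 alternative fits. SOX2 was thus lower with ARRB1 siRNA in both treatments, as were 32.6% of all expressed probe sets. ABCG2 had log2 differences of 0.10 in nicotine treated and −0.04 in serum starved cells, as given above. The largest single differences in the list were not called: CXCR4, a chemokine receptor, had 76.2 and 138 in ARRB1 siRNA cells with and without nicotine and 119 and 92.0 in control siRNA cells, and THY1, a surface glycoprotein, had 165 and 92.8 in ARRB1 siRNA cells and 99.2 and 126 in control siRNA cells. With nicotine in ARRB1 siRNA cells their log2 differences were −0.86 (SD 0.506) and 0.83 (SD 0.482), and in control siRNA cells they were 0.37 (SD 0.473) and −0.35 (SD 0.455). ALDH1A3, another aldehyde dehydrogenase, had 286 and 258 in ARRB1 siRNA cells and 264 and 402 in control siRNA cells. The epithelial marker CDH1, which encodes E-cadherin, fell with ARRB1 siRNA in the additive fit (−0.74 ± 0.09, adjusted p = 0.00156). It had 2827 and 3201 in ARRB1 siRNA cells with and without nicotine and 4812 and 5218 in control siRNA cells. Its part in the other differences was not tested.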

How the data were processed

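Human A549 RNA from 4 conditions was hybridised to Affymetrix Human Genome U133 Plus 2.0 arrays, 1 array for each. The deposited values are probe set intensities, MAS5 signals on a linear scale that the authors scaled on each array, made with GCOS 1.4 according to the submitters' processing notes. The log2 transformation and gene centring named in the study's methods are not in these values. Of 54675 probe sets, 62 controls were left out. GEO's platform annotation gave 1 symbol to 41091 of the rest, several to 1801 and none to 11721.

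Signals were transformed to log2 with no floor. Differences between 2 arrays were read against the submitters' 2-fold limit and carry no p-value. The additive fit used limma 3.58.1 in R 4.3.3 (lmFit and eBayes with trend and robust settings, 1 residual degree of freedom, Benjamini-Hochberg adjustment, threshold 0.05) on probe sets at or above the median mean signal. Its code was also run on simulated data with independent errors and no interaction. The differences added there were larger than those of the list genes named as called, so that run does not check calls of their size. Nothing says whether the arrays came from separate cultures beyond their conditions. A single array for each condition limits the precision.

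Where a gene had several probe sets, the one of highest mean log2 signal stood for it. From each list the genes named were those past 2-fold and up to 2 with the largest difference in each comparison; those called in the fit, and NFE2L2, were added after their values were seen. The members and lists were chosen with earlier results of these data known. Alternatives covered scaling, floors, filters, fold limits, the choice of probe sets and the form of the fit.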

Additional observations from a re-analysis of the deposited data

How the results depend on the processing

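The count of efflux transporter probe sets at least 2-fold higher with nicotine in control siRNA cells, 1 as reported, was 0 after centring each array on its median, 0 at a 3-fold limit and 0 with the filter at the 75th percentile. With ARRB1 siRNA in serum starved cells the counts of 0 higher and 0 lower became 1 and 1 at a 1.5-fold limit, and 1 was higher with no filter. In nicotine treated cells the count higher became 1 with no filter, where the added probe set is 209993_at of ABCB1. Centring moved the median of all expressed probe sets with nicotine by 0.07 in ARRB1 siRNA cells and by −0.10 in control siRNA cells.

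None of the 15 efflux transporter probe sets was called in the additive fit. The adjusted p of ABCC4 for ARRB1 siRNA ranged over the 5 alternatives between 0.0891 and 0.369 on 203196_at and between 0.0939 and 0.317 on 1554918_a_at. Other pumps also came near the threshold in some fits. For nicotine, 242553_at of ABCC3 ranged between 0.055, after centring, and 0.999. For ARRB1 siRNA, 202804_at of ABCC1 ranged between 0.095, with quantile normalization, and 0.611. Over all expressed probe sets, 1172 were called for ARRB1 siRNA and 69 for nicotine, against 810 and 46 with quantile normalization, 1053 and 216 after centring, 184 and 0 with no filter, 170 and 0 with no term for the other factor, and 0 and 0 without the trend and robust settings, where 3697 and 2098 had an unadjusted p under 0.05. Over the 5 alternative fits, ABCA1 and TAP1 kept their calls in 4, SLCO1B3 in 3, and ABCG1, TAP2 and SOX2 in 2. CDH1 kept its call in 4. Over all expressed genes, 2-fold counts with nicotine in control siRNA cells were 90 higher and 42 lower, against 1753 and 1232 with no filter and 4 and 1 with the filter at the 75th percentile.

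No paired analysis was possible because each condition had 1 array, so that no replicate numbers pair arrays beyond the conditions themselves. The additive fit's term for the other factor is the only block, and the counts without it are given above. No array was left out, since each is the whole of its group. Low signals limit ABCB1, whose probe sets were below the median of every array.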
